A study of Mus musculus with 6 samples.

Results

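The transcripts described here are those of the colony-stimulating factors and their receptors in the mouse uterus just before the embryo attaches. The 10 genes are the ligands *Csf1*, *Il34*, *Csf2* and *Csf3*, the receptor chains *Csf1r*, *Csf2ra*, *Csf2rb* and *Csf3r*, and the neutrophil calcium-binding proteins *S100a8* and *S100a9*. They were taken by symbol from the 56748 genes counted in every uterus, with earlier results of these data known, and each symbol matched 1 gene identifier. The RNA came from the whole uterus of 3 controls and 3 *Gp130* ecKO mice, whose background strain is labelled C57BL/6 and is given as C57BL/6J in the methods of the study, collected at 1600 h on day 4 of pregnancy, after mating with a fertile wildtype male. *Gp130* ecKO females were sexually mature, carried *Ltf* iCre/+ and were *Gp130* flox/flox, so that the recombinase made from the lactoferrin locus deletes the floxed gene in the uterine epithelium. The control females are labelled WT, and the methods of the study describe controls as *Ltf* +/+ with *Gp130* flox/flox or as wildtype, without saying which of these each control uterus was. The lactoferrin locus is also active in maturing neutrophils, and the study names macrophages beside neutrophils among the immune cells with *Ltf* expression. The deletion is thus not limited to the epithelium by its promoter alone. The question addressed was how loss of the signal transducer Gp130 from the epithelium alters gene expression in the receptive uterus.

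CSF1 and IL-34 both act through the receptor tyrosine kinase CSF1R, which keeps monocytes and macrophages alive and lets them mature. CSF2, or GM-CSF, acts through a specific alpha chain and a common beta chain on macrophages, dendritic cells and granulocytes, whereas CSF3, or G-CSF, acts through a single-chain receptor that shares its cytokine receptor fold with Gp130 and drives the production of neutrophils. The uterine epithelium is a known source of several of these factors in early pregnancy, and S100A8 and S100A9 form calprotectin, the most abundant cytosolic protein pair of neutrophils.

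*S100a8* (chromosome 3, 90567118 to 90578128, plus strand of GRCm39) and *S100a9* (chromosome 3, 90599931 to 90603071, minus strand) are neighbours, and the sequences ahead of their RefSeq starts are shown because their values moved together across the uteri. RefSeq promoter windows of build GRCm38.p6 were found for 6 of the 10 genes, and each of the 6 matched GRCm39 exactly at 1 place. The bases below are the stretch of each 250-base upstream window, from its 5′ end, that holds no exon annotated in GENCODE M39. That of *S100a8* lies at chr3:90576128-90576284 within an intron of the longer annotated transcripts, and that of *S100a9* lies at chr3:90603072-90603278 outside the annotated gene. Capitals mark the PU.1 core, GAGGAA on either strand, a sequence bound by the myeloid factor PU.1.
S100a8: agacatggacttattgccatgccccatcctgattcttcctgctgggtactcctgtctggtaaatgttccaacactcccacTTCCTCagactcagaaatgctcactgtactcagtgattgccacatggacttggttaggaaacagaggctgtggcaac
S100a9: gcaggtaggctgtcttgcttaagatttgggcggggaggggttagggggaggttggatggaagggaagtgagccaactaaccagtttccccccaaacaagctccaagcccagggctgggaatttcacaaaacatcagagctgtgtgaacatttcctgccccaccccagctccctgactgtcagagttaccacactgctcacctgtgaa
Within the full 250 bases, *S100a8* held 2 PU.1 cores, *Csf2ra* 2 and *Csf3r* 1, and *S100a9*, *Csf1* and *Csf2* held none. The core is common, and 23.3% of the 32851 windows in the table have it. The STAT motif TTCNNNGAA and the AP-1 motif TGANTCA, searched on both strands, were in none of the 6 windows, against 7.02% and 6.75% of all windows. No motif here overlapped another kind, and a match of letters is a description of the sequence only.

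Values are given as CPM, the standard per-library scaling of counts, here on library sizes adjusted by the TMM method, and compared with edgeR's quasi-likelihood test over 16605 genes that passed a filter on low counts. A gene was called at a false discovery rate below 0.05 with more than 2-fold change. Total expected counts were 22930513 to 25906443 in 5 uteri and 13960748 in control 3, where weakly expressed genes are measured least precisely. Nothing in the labels states that a uterus was pooled or split, and p-values measure the spread between these 3 and 3 uteri. *Il6st*, the gene of Gp130, lay at 452 to 678 CPM in controls and at 349.8 to 388 CPM in *Gp130* ecKO uteri, in RNA that also held stroma and muscle. Epithelial marker genes had a sum of 1705 to 2602 CPM in control uteri, against 3801 to 5101 CPM where Gp130 was deleted. The study reports higher KRT8 and CDH1 staining in the epithelium of *Gp130* ecKO. This sum cannot tell more epithelium from more RNA per cell. Within that sum *Cdh1*, *Krt8*, *Krt18* and *Krt19* had log2 fold changes of 0.66 to 2.19. *Epcam*, named after its values were seen, had a log2 fold change of −0.19 with overlap. None of the 5 was called by edgeR's quasi-likelihood test, although 3 reached an unadjusted p below 0.05. DESeq2 and edgeR's exact and likelihood ratio tests, named below as the other 3 tests, each called *Krt8* and *Krt19*. Over all 16605 genes they called 1546, 1252 and 1317. A further test, limma-voom, was also run, and its calls within the lists are not given. The log2 fold change of *Krt19*, 2.19, was 3.21 without control 2, and there it was called (adjusted p = 0.00715 by edgeR's quasi-likelihood test). That fit called 843 of the 16605 genes, against 26 with all uteri.

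In *Gp130* ecKO uteri the transcript of *Csf3* was 13.1-fold higher than in controls, and those of *Csf1*, *Il34*, *Csf2rb*, *S100a8* and *S100a9* were lower, with no overlap between the groups in any of these 6 genes. Of the 10 genes 9 passed the filter, *Csf2* being too low, and none of the 9 was called by edgeR's quasi-likelihood test, where 0.157% of all genes tested were called. At an unadjusted p below 0.05, 6 of the 9 differed, 1 higher and 5 lower. *S100a8* and *S100a9* passed the filter through their controls, since their *Gp130* ecKO counts are near 0, so this count is a description of the 9 and no support for a difference. Among all genes tested, 25% reached that level, 12.1% on the higher and 12.9% on the lower side. The same 6 genes had groups that did not overlap, against 31.3% of all genes tested, 15.7% higher and 15.6% lower. The background of such genes is thus large in these uteri, and the values of each gene are given below with that share in view. DESeq2 called 4 of the 9, and 1546 of the 16605 genes tested. edgeR's exact and likelihood ratio tests called 5 each, and 1252 and 1317 of all genes tested. *S100a8* is among the 5, and given how it passed the filter, its calls do not support a difference. With limma-voom and with the legacy form of the quasi-likelihood test 0 of the 9 were called, and 19 and 7 of all genes. In each of the 6 genes a two-sided exact permutation test, run on log2(CPM + 0.5), gave p = 0.1, the smallest that 3 uteri against 3 can give. Groups of this size without overlap always give that value, so it adds nothing to the lack of overlap.

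**Figure D1:**
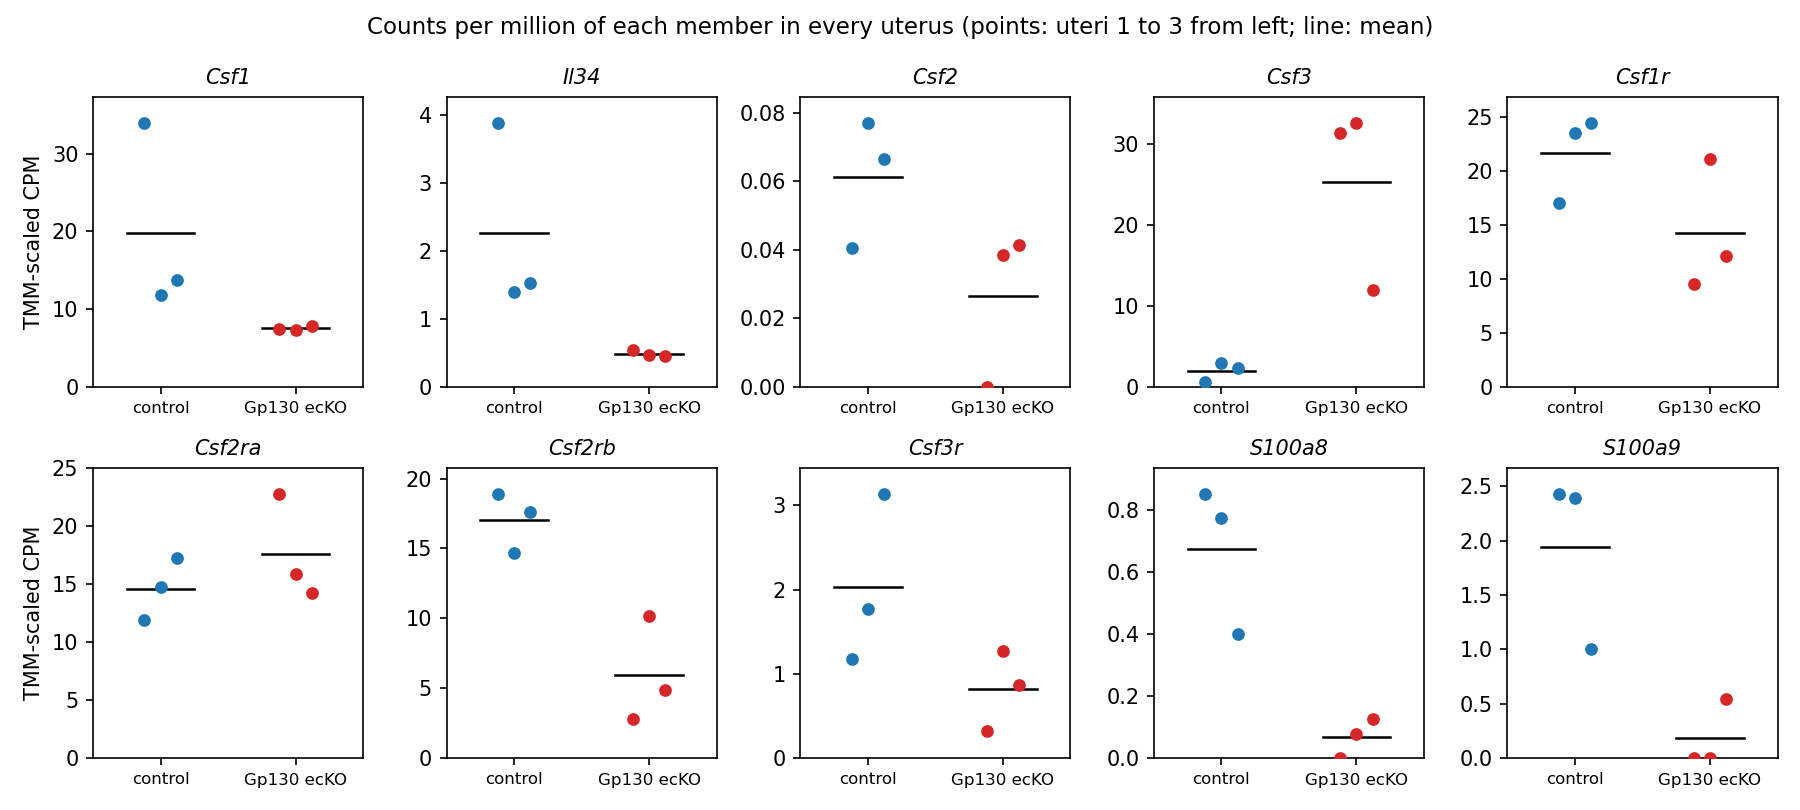
TMM-scaled CPM of each of the 10 genes in every uterus, with a linear axis per gene that starts at 0, a point for each of the 3 control and 3 *Gp130* ecKO uteri in the order of their numbers, and a line at the group mean. *Csf3* is higher in every *Gp130* ecKO uterus, and *Csf1*, *Il34*, *Csf2rb*, *S100a8* and *S100a9* are lower in every one, while the points of the other 4 genes overlap.

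Among the ligands, *Csf3* (ENSMUSG00000038067, chromosome 11, 98592089 to 98594458) codes for G-CSF, the factor that drives granulocyte production. Controls 1, 2 and 3 held 0.607, 2.89 and 2.33 CPM, from 15, 75 and 35 counts. *Gp130* ecKO 1, 2 and 3 held 31.4, 32.6 and 11.9 CPM, from 695, 848 and 287 counts. The lowest *Gp130* ecKO value exceeded the highest control value, and *Gp130* ecKO 3 was the lowest of its group. The means were 1.94 ± 1.19 and 25.3 ± 11.6 CPM (SD, n = 3 each), a log2 fold change of 3.71 (SE 0.63, adjusted p = 0.0616 by edgeR's quasi-likelihood test). A larger positive log2 fold change was fitted for 46 of the tested genes, or 0.277%, and a smaller p was found for 129. *Csf3* was called in 5 alternatives, namely by DESeq2, by the exact and the likelihood ratio test of edgeR, with no filter on low counts (adjusted p = 0.0407), and by the quasi-likelihood test without control 2, where the log2 fold change was 4.23 and the adjusted p 0.031. Of all genes, 105 of 29916 were called with no filter and 843 of 16605 without control 2. Over the 18 alternatives the log2 fold change stayed between 3.28 and 4.23, with an adjusted p as low as 1.29e-07 (DESeq2) and as high as 0.177 (without *Gp130* ecKO 1). Of the 75-base stretches of the *Csf3* transcripts, 29.7% also occur on the opposite strand in the transcripts of *Gm38985*. The libraries keep strand, but whether the authors' counting used it is not stated, so reads of the pair may not have been told apart.

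*Csf1* (ENSMUSG00000014599, chromosome 3, 107648364 to 107667806) codes for M-CSF, the main growth factor of macrophages, which the uterine epithelium makes under steroid hormones. Its level was 34.0, 11.8 and 13.7 CPM in controls 1, 2 and 3. The corresponding values of *Gp130* ecKO 1, 2 and 3 were 7.46, 7.35 and 7.88 CPM. Control 1 stood far above the others, and the 3 *Gp130* ecKO uteri lay close together below the lowest control. The log2 fold change was −1.39 (SE 0.42, adjusted p = 0.117 by edgeR's quasi-likelihood test). Leaving out control 1 gave −0.73. *Csf1* passed the threshold with DESeq2 (adjusted p = 0.0239) and with the exact and likelihood ratio tests of edgeR, and the adjusted p was at most 0.299 over the alternatives.

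*Il34* (ENSMUSG00000031750, chromosome 8, 111423928 to 111532584) codes for the second ligand of CSF1R, known for its part in keeping microglia and Langerhans cells. The controls had 3.88, 1.39 and 1.53 CPM, and the *Gp130* ecKO uteri had 0.543, 0.461 and 0.456 CPM. As with *Csf1*, control 1 was the highest and the *Gp130* ecKO uteri were nearly equal. The log2 fold change was −2.23 (SE 0.55, adjusted p = 0.0918 by edgeR's quasi-likelihood test), or −1.55 when control 1 was left out. Summed over uteri there were 155 counts in the controls and 35 in *Gp130* ecKO, a depth-corrected ratio of 4.87 with a 95% counting interval of 3.36 to 7.25. That interval covers counting error only, and control 1 held 96 of the 155 counts. *Il34* overlaps *Vac14* and *Mtss2* on the other strand, though only 0.684% of its stretches are shared with other transcripts.

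In both *Csf1* and *Il34*, control 1 was highest and the *Gp130* ecKO uteri lay below all controls. Ranked by the root mean square difference of log2(CPM + 0.5) after centring each gene, *Il34* was the second closest of all tested genes to *Csf1*, at 0.141, after *Reep4* at 0.133 and before *Pam* at 0.143, where the values of *Csf1* itself spread by 0.75. The nearest to *Csf3* were *Nptx1* at 0.448, *Egfros* at 0.454 and *Cyp4x1* at 0.455, against a spread of 1.84. The 0.5 added is about the level of *Il34* in *Gp130* ecKO, which shrinks its difference on this scale, and the fitted log2 fold changes of *Csf1* and *Il34* were −1.39 and −2.23. This measure covers 6 uteri of 2 groups, so genes that differ between the groups by a like amount come out close. Per transcript length, the ratio of *Csf1* to *Il34* in TPM was 3.93, 2.64 and 2.94 in the controls and 7.22, 6.36 and 5.83 in *Gp130* ecKO. *Csf1* therefore made up more of the CSF1R ligand transcripts in every *Gp130* ecKO uterus, with both ligands lower.

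*Csf2* (ENSMUSG00000018916, chromosome 11, 54138097 to 54140493), which codes for GM-CSF, was barely detected. It had 1, 2 and 1 counts in controls 1, 2 and 3 and 0, 1 and 1 counts in *Gp130* ecKO 1, 2 and 3. These are below 3 counts, the limit that a count of 0 allows, which is 0.115 to 0.2 CPM in these libraries. No difference was detectable at this depth, and no fold is given.

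**Figure D2:**
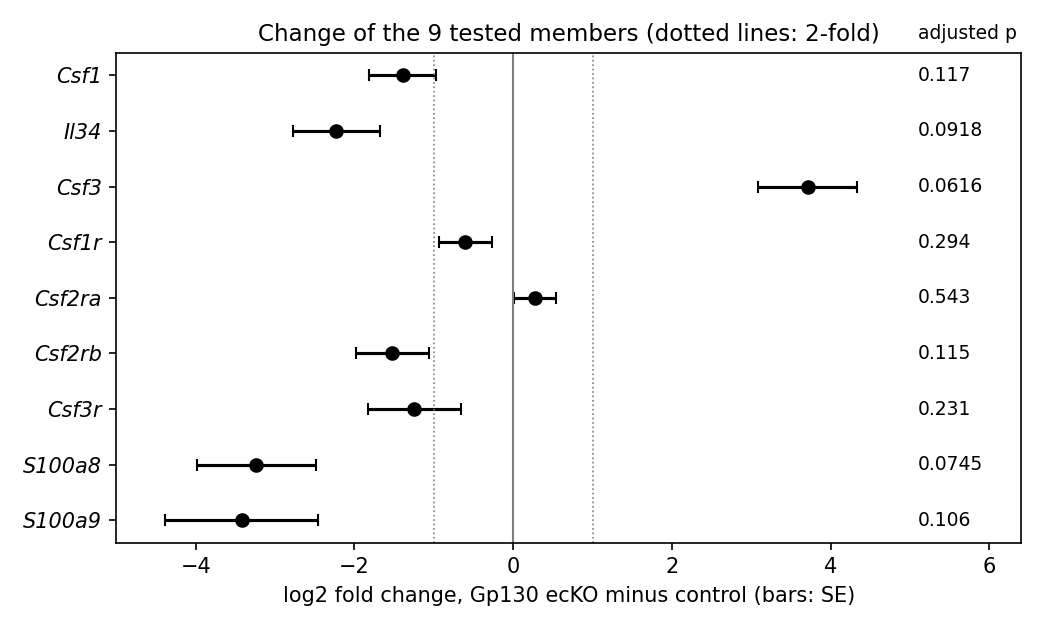
Log2 fold change of *Gp130* ecKO over control for the 9 tested genes, as points with SE bars from edgeR's quasi-likelihood fit, with dotted lines at 2-fold and the adjusted p at the right. *Csf3* lies at 3.71 and *S100a9* at −3.42, and no adjusted p is below 0.05.

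Of the receptor chains, *Csf2rb* alone had groups that did not overlap. *Csf1r* (ENSMUSG00000024621, chromosome 18, 61229714 to 61266535), the receptor for CSF1 and IL-34 and a standard macrophage marker, was measured at 17.1, 23.6 and 24.5 CPM in controls, against 9.49, 21.2 and 12.1 CPM after deletion. The groups overlapped, because *Gp130* ecKO 2 stood among the controls. A log2 fold change of −0.60 was fitted (SE 0.33, adjusted p = 0.294 by edgeR's quasi-likelihood test). It became −1.003 when *Gp130* ecKO 2 was left out and −0.38 when *Gp130* ecKO 1 was. *Csf1r* shares 17.6% of its stretches with transcripts of the opposite strand, mostly *Hmgxb3*. The genes with the most like profile were *Pcdhb16* at 0.074, *Acsbg1* at 0.089 and *Sdc3* at 0.096, where *Csf1r* itself spread by 0.49.

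*Csf2ra* (ENSMUSG00000059326, chromosome 19, 61212395 to 61216892), the alpha chain that binds GM-CSF, stood at 11.9, 14.7 and 17.2 CPM in controls 1 to 3. The *Gp130* ecKO values, 22.7, 15.8 and 14.2 CPM, overlapped with these, *Gp130* ecKO 1 being the highest. Its log2 fold change was 0.27 (SE 0.27, adjusted p = 0.543 by edgeR's quasi-likelihood test).

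*Csf2rb* (ENSMUSG00000071713, chromosome 15, 78209952 to 78238047) codes for the common beta chain, which signals for GM-CSF, IL-3 and IL-5. Values of 18.9, 14.7 and 17.6 CPM in the controls compared with 2.76, 10.2 and 4.85 CPM after deletion of Gp130. All *Gp130* ecKO uteri were below the controls, and *Gp130* ecKO 2 was again the nearest to them. The log2 fold change was −1.52 (SE 0.46, adjusted p = 0.115 by edgeR's quasi-likelihood test). With *Gp130* ecKO 2 left out it was −2.16. On the deposited TPM the groups overlapped, at 5.09, 4.17 and 5.49 in the controls and 0.86, 4.93 and 1.35 in *Gp130* ecKO. The effective length that RSEM gave *Csf2rb* was 3110 bases in *Gp130* ecKO 2 and 4436 to 4580 in the other uteri, and that shorter length raises its TPM.

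The mouse has a second beta chain gene, *Csf2rb2*, which serves IL-3 and shares 7.17% of the 75-base stretches of *Csf2rb*. The controls held 23.6, 8.91 and 12.4 CPM of it, and the *Gp130* ecKO uteri 3.39, 9.88 and 4.60 CPM, with overlap. With the counts of the pair added, the values were 42.5, 23.6 and 30.0 CPM against 6.15, 20.04 and 9.45 CPM, without overlap. The log2 fold change of the sum was −1.43 (SE 0.45, adjusted p = 0.122 by edgeR's quasi-likelihood test).

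*Csf3r* (ENSMUSG00000028859, chromosome 4, 125918262 to 125938236), the G-CSF receptor of neutrophils and their precursors, was low in all uteri. Controls gave 1.17, 1.77 and 3.13 CPM, and *Gp130* ecKO gave 0.316, 1.27 and 0.871 CPM. *Gp130* ecKO 2 lay above control 1, and the ranges crossed there. A log2 fold change of −1.25 was fitted (SE 0.58, adjusted p = 0.231 by edgeR's quasi-likelihood test). The TPM ratio of *Csf3* to *Csf3r* was 0.903, 3.75 and 1.22 in the controls and 233, 59.2 and 16.2 in *Gp130* ecKO. Every *Gp130* ecKO ratio was above every control ratio, and that of *Gp130* ecKO 1 rests on 7 counts of *Csf3r*.

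*S100a8* (ENSMUSG00000056054) and *S100a9* (ENSMUSG00000056071) are made in large amounts by neutrophils and also by some monocytes. *S100a8* had 21, 20 and 6 counts in controls 1, 2 and 3 and 0, 2 and 3 counts in *Gp130* ecKO 1, 2 and 3. Its CPM was 0.850, 0.771 and 0.400 against 0, 0.0769 and 0.124. The groups did not overlap, although every *Gp130* ecKO uterus held no more than 3 counts. The summed counts of 47 and 5 gave a depth-corrected ratio of 10.3 with a 95% counting interval of 4.13 to 33.3, which covers counting error only. The fitted log2 fold change was −3.24 (SE 0.75, adjusted p = 0.0745 by edgeR's quasi-likelihood test), and −3.89 to −2.74 with each uterus left out in turn. Because *S100a8* passed the filter through its controls, these are given as values of the fit and not as support for a difference.

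*S100a9* had 60, 62 and 15 counts in the controls and 0, 0 and 13 counts in *Gp130* ecKO. On the CPM scale this was 2.43, 2.39 and 1.00 against 0, 0 and 0.539. The groups did not overlap, with *Gp130* ecKO 3 holding all counts of its group and control 3 the lowest of its own. The summed counts of 137 and 13 gave a ratio of 11.6 with a 95% counting interval of 6.56 to 22.3. This interval too covers counting error only. The fitted log2 fold change was −3.42 (SE 0.97, adjusted p = 0.106 by edgeR's quasi-likelihood test). It rests on *Gp130* ecKO 3, without which the group has no count and the fit gave −8.49, a value that depends on the prior count and is no bound, and it was −2.81 without *Gp130* ecKO 2. As with *S100a8*, the gene passed the filter through its controls, and the fitted values do not support a difference. In the uteri with the most *Csf3*, *Gp130* ecKO 1 and 2, these neutrophil transcripts were at 0 to 2 counts. In whole tissue, fewer cells of a type and less RNA per cell cannot be told apart.

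**Figure D3:**
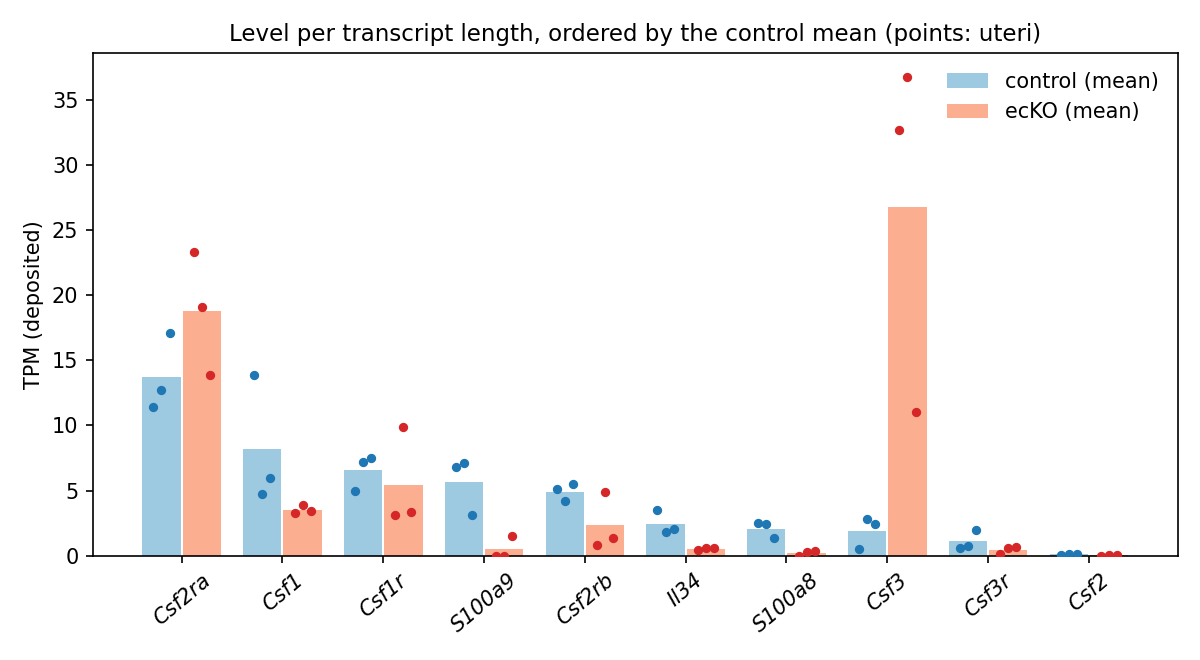
Deposited TPM, which is scaled for transcript length and depth, of the 10 genes in the order of their control means, with bars at the group means and a point for each uterus. *Csf3* is eighth in the controls, at 1.93 TPM, and first in *Gp130* ecKO, at 26.8 TPM.

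Per transcript length, *Csf2ra* was the highest of the 10 genes in the controls, at 13.8 ± 3.0 TPM (SD, n = 3). After it came *Csf1* at 8.21 ± 4.96, *Csf1r* at 6.56 ± 1.41, *S100a9* at 5.69 ± 2.23 and *Csf2rb* at 4.92 ± 0.68 TPM. The lower levels were those of *Il34* at 2.46 ± 0.94, *S100a8* at 2.09 ± 0.65, *Csf3* at 1.93 ± 1.202, *Csf3r* at 1.12 ± 0.75 and *Csf2* at 0.113 ± 0.038 TPM. Between neighbours in this order the uteri overlapped, except between *Csf2rb* and *Il34* and between *Csf3r* and *Csf2*. In *Gp130* ecKO the order was led by *Csf3* at 26.8 ± 13.8 and *Csf2ra* at 18.8 ± 4.7 TPM, which overlapped. *Csf1r* followed at 5.45 ± 3.81 TPM, below every value of *Csf2ra*, and *Csf1* at 3.55 ± 0.29 TPM. *Csf2rb* was at 2.38 ± 2.22 and *Il34* at 0.553 ± 0.081 TPM without overlap between them, and the last 4 genes were all at or below 0.5 TPM.

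The partners of these receptors include other ligands and chains that use the common beta chain and other proteins that bind IL-34. Of 7 listed genes 4 were tested, all 4 were lower in *Gp130* ecKO and none was called by the quasi-likelihood test or by the other 3, with 2 at an unadjusted p below 0.05 and a median log2 fold change of −0.61 beside −0.05 for all genes tested. *Sdc1*, a proteoglycan that binds IL-34, was 95.7 ± 19.4 and 64.4 ± 5.8 CPM (SD, n = 3 each), without overlap between the groups. *Il3* and *Il5*, the other ligands of the common beta chain, had no count in any uterus, which allows up to 3 counts in each library. *Il5ra*, the receptor chain for IL-5, was below the filter and is named after its values were seen, with 4, 0 and 1 counts in the controls and 25, 4 and 15 counts in *Gp130* ecKO, and its groups overlapped on the CPM scale.

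Of 18 genes of CSF1R signaling, all tested, 12 were lower and 6 higher, and the median was −0.50. None was called by edgeR's quasi-likelihood test, 5 had an unadjusted p below 0.05, and the other 3 tests each called 1, *Pik3r1*. *Pik3r1*, the regulatory subunit of phosphoinositide 3-kinase, was higher without overlap, at 169 ± 39 and 349.8 ± 36.6 CPM (adjusted p = 0.0732 by edgeR's quasi-likelihood test). The adaptor *Grb2* was also higher without overlap, at 134 ± 34 and 197 ± 25 CPM, while *Shc1* and *Src* overlapped. Lower without overlap, and named here after their values were seen, were *Spi1*, which codes for the myeloid factor PU.1, at a log2 fold change of −1.13 (adjusted p = 0.169) and the myeloid surface receptor *Trem2* at −1.24 (adjusted p = 0.197).

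Of 19 genes that signal for the GM-CSF and G-CSF receptors 18 were tested, 9 were higher and 9 lower, with a median of −0.05. A single gene of this list was called by edgeR's quasi-likelihood test, where 0.157% of all genes tested were called, and 11 had an unadjusted p below 0.05. The exact and the likelihood ratio test called 5 each (*Stat5a*, *Stat5b*, *Socs3*, *Cebpa* and *Cebpb*), and DESeq2 called these and *Jak2*. Of all 16605 genes tested, these 3 tests called 1252, 1317 and 1546. *Stat5b*, a transcription factor that both receptors activate, was close to 44.2 CPM in the controls, with values of 43.003, 46.4 and 43.3, and was 102, 101 and 109 CPM after deletion. The uteri of each group lay close together, and *Stat5b* rose by 1.23 on the log2 scale (SE 0.14, adjusted p = 0.0429 by edgeR's quasi-likelihood test). With each uterus left out in turn the log2 fold change stayed at 1.22 to 1.3, but the call held in 1 of 6 fits, that without control 2, and the adjusted p ran from 0.0178 to 0.137. *Jak2*, the kinase of these receptors, was 271 ± 160 and 587 ± 49 CPM without overlap (adjusted p = 0.141). The log2 fold change of *Jak2* was 1.115, and 1.745 without control 2, the highest control. *Stat3*, which Gp130 and the G-CSF receptor both activate, was lower without overlap, at 350.1 ± 106.3 and 199 ± 38 CPM (adjusted p = 0.125), and *Jak1* and *Ptpn11* overlapped. *Socs3*, the feedback inhibitor of the G-CSF receptor and of Gp130, which the study examined, had 47.5, 29.5 and 67.2 CPM in the controls, compared with 5.11, 10.8 and 6.92 CPM after deletion. The log2 fold change was −2.65 (SE 0.40, adjusted p = 0.0548). Also without overlap, and named after their values were seen, were *Stat5a* at a log2 fold change of 1.98 (adjusted p = 0.0548) and *Cebpa* and *Cebpb*, factors of granulocyte maturation, at −2.02 and −1.63 (adjusted p = 0.117 and 0.112). Control 1 was the highest in both, and without it these were −0.96 and −0.98. Without control 2, the calls by the same test also included *Jak2* (adjusted p = 0.0147), *Socs3* (0.0147), *Stat5a* (0.0227) and *Cebpb* (0.0247). That fit called 843 of the 16605 genes, 575 higher and 268 lower.

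Markers of the cells that carry these receptors were examined next. Of 13 macrophage genes 12 were tested, 10 lower and 2 higher, and the median was −0.66. None was called by edgeR's quasi-likelihood test, 2 had an unadjusted p below 0.05, and the other 3 tests each called *Mrc1* alone. Without *Gp130* ecKO 2 that median was −1.30, and without *Gp130* ecKO 1 it was −0.33. Their summed CPM overlapped, at 426 to 549 in the controls and 284 to 555 in *Gp130* ecKO, a sum led by *Lyz2* at 232 ± 27 and 304 ± 162 CPM. The other 12 genes summed to 196 to 288 CPM in controls, against 88.4 to 217 CPM, with *Gp130* ecKO 2 among the controls. *Mrc1*, *Aif1* and *Msr1*, named after their values were seen, were lower without overlap, as were 15.6% of all genes tested, at log2 fold changes of −1.28, −1.07 and −1.78 (adjusted p = 0.0804, 0.219 and 0.124 by edgeR's quasi-likelihood test). *Cd68*, *Mertk* and *Cx3cr1*, also named afterwards, overlapped at 0.39, −0.12 and −0.38. The complement genes *C1qa*, *C1qb* and *C1qc* had log2 fold changes of −0.76, −0.91 and −0.92 with overlap, and *Csf1r* at −0.60 lies near them. All 4 tested monocyte genes were lower, with a median of −0.71, and their sum was 270 to 364 CPM against 102 to 254. *Plac8* led that sum, at 198 to 237 CPM against 65.2 to 162 CPM, and it alone had groups without overlap. Without *Plac8* the sums overlapped, at 72.3 to 161 CPM against 26.5 to 91.9 CPM. None of the 4 was called by the quasi-likelihood test or by the other 3 tests, and 1 had an unadjusted p below 0.05 by the quasi-likelihood test. The 6 dendritic cell genes had a median of 0.01, with 4 higher and 2 lower. None was called by the quasi-likelihood test or by the other 3 tests, and 1 had an unadjusted p below 0.05. That gene, *Clec9a*, was lower without overlap, at −1.83 (adjusted p = 0.149 by edgeR's quasi-likelihood test), and the rest overlapped.

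Of 12 neutrophil genes only 3 passed the filter. *Elane*, *Ngp* and *Stfa2l1* had no count in any uterus, and *Camp* and *Mmp8*, named after their values were seen, had 1 count each, in *Gp130* ecKO 3. Below the filter, and also named afterwards, *Cxcr2* had 8, 11 and 3 counts in the controls and 0, 3 and 0 counts in *Gp130* ecKO, *Mpo* had 27, 10 and 6 against 2, 2 and 8, and *Trem1* had 8, 6 and 5 against 1, 4 and 0. On the CPM scale these 3 were lower in *Gp130* ecKO without overlap, as were 15.6% of the genes that passed the filter. *Fpr1*, the remaining gene below the filter, had 8, 3 and 9 counts against 1, 4 and 5, and its groups overlapped. *Retnlg*, a neutrophil-secreted factor, had 1.13, 3.12 and 0.533 CPM in the controls, but 0.271, 0.154 and 0.166 CPM after deletion, without overlap. It passed the filter through its controls. *Ly6g*, the surface antigen by which mouse neutrophils are usually sorted, was 1.58, 0.578 and 0.267 CPM against 0.543, 2.19 and 2.61 CPM, with overlap. *Padi4*, a histone-modifying enzyme, was 12.1, 11.1 and 11.8 CPM against 59.4, 13.4 and 31.5 CPM, higher after deletion and with no overlap. Its log2 fold change was 1.57 (SE 0.48, adjusted p = 0.118 by edgeR's quasi-likelihood test). It was 0.94 when *Gp130* ecKO 1 was left out. The quasi-likelihood test called none of the 3 tested genes, and 2 had an unadjusted p below 0.05. The other 3 tests each called *Padi4* and *Retnlg*. Given how *Retnlg* passed the filter, its calls do not support a difference. *Padi4* makes up most of the summed list, which was 14.1 to 16.8 CPM in controls and 16.2 to 60.4 CPM after deletion. The part of this list in the values of *S100a8*, *S100a9* and *Csf3r* was not tested.

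**Figure D4:**
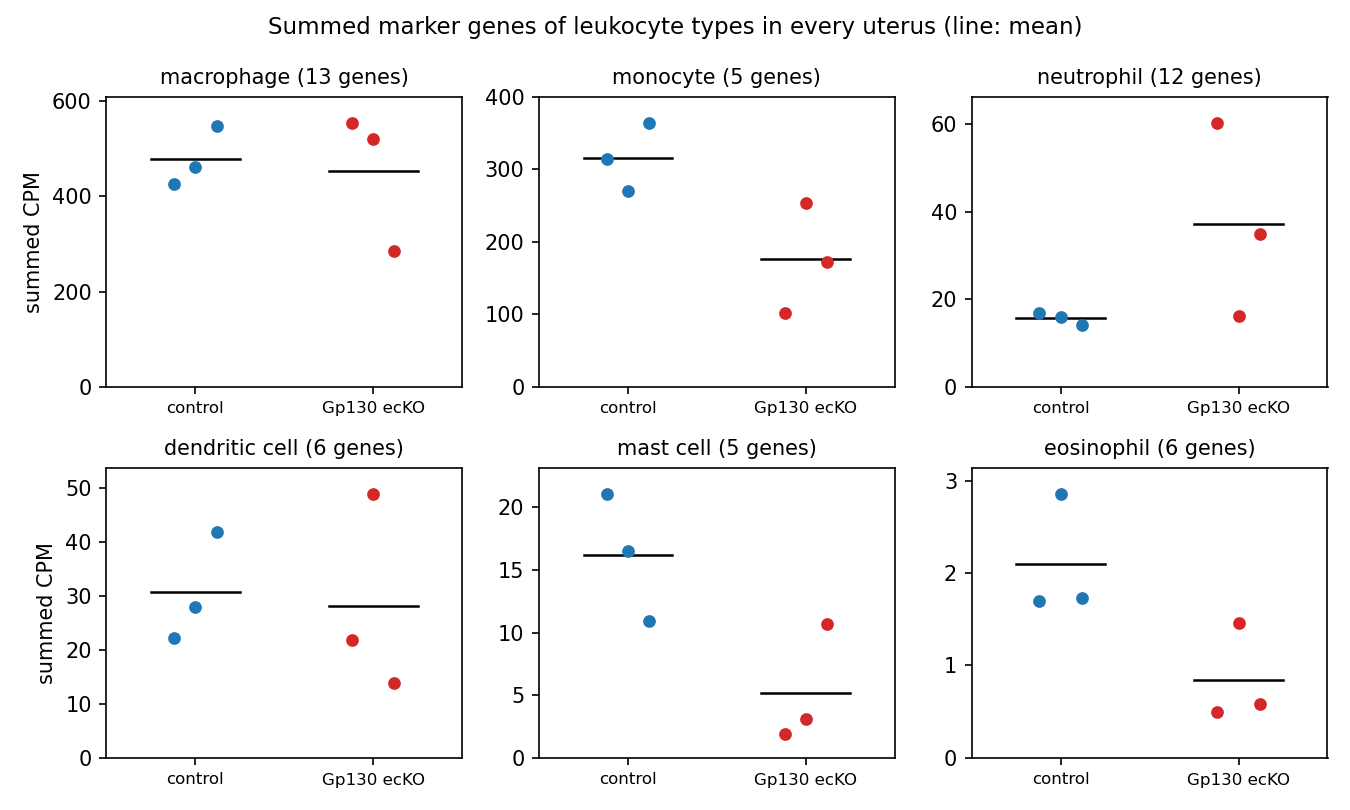
Summed TMM-scaled CPM of the marker genes of 6 leukocyte types in every uterus, with linear axes that start at 0 and a line at each group mean. Macrophage sums overlap between the groups, monocyte sums, led by *Plac8*, and mast cell sums are lower in *Gp130* ecKO, and the neutrophil sum consists mostly of *Padi4*.

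Mast cells depend on other factors but use the common beta chain. All 4 tested mast cell genes were lower, with a median of −1.74 (−2.76 without *Gp130* ecKO 3), and the summed list ran from 10.9 to 21.0 CPM in controls and from 1.90 to 10.7 CPM after deletion. None was called by edgeR's quasi-likelihood test, and 2 had an unadjusted p below 0.05. Of the other 3 tests, DESeq2 alone called a gene of this list, *Cma1*. The 2 tested eosinophil genes, *Prg2* and *Ear2*, were lower too, but with overlap, and *Epx* and *Ear1* had no count in any uterus. Neither of the 2 was called by the quasi-likelihood test (adjusted p = 0.333 and 0.367) or by the other 3 tests. Marker genes of other tissues were counted in the same libraries, where 52.9% of all genes tested were lower. Of 5 epithelial genes 4 were higher (median 0.74), all 5 stromal genes were lower (median −0.85), and all 4 endothelial genes were lower (median −1.23), and none of these genes was called by edgeR's quasi-likelihood test. At an unadjusted p below 0.05 were 3, 4 and 4 genes of these lists. The other 3 tests each called *Pdgfrb* and *Hand2* of the stroma and *Kdr* and *Tek* of the endothelium, and DESeq2 also called *Pecam1*. Smooth muscle genes had sums of 933, 782 and 279 CPM in controls 1, 2 and 3, against 193, 369 and 1111 CPM in *Gp130* ecKO 1, 2 and 3, without following the groups. The part of these marker values in the levels of the colony-stimulating factors was not tested.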

How the data were processed

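Whole-uterus RNA was measured in 3 control and 3 *Gp130* ecKO females. The authors deposited, per uterus, RSEM expected counts and TPM for 56748 genes, from strand-specific libraries read in 75-base reads. Per the submitters' processing notes the tools were fastp 0.23.2, STAR 2.7.10a and RSEM 1.3.3 on GRCm39, with R 4.2.1 and edgeR 3.38.4. The annotation version and the strand setting of counting are not given in the sources used here. RSEM divides reads that fit several genes.

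Expected counts were rounded and tested in R 4.3.3 with edgeR 4.0.16 (filterByExpr, TMM, quasi-likelihood F test without the legacy setting, Benjamini-Hochberg adjustment over 16605 genes). SE is the log2 fold change over the square root of F. Deposited TPM served for levels per length and was not tested. Symbols came from GENCODE M39 (56017 of 56748 identifiers). Counting intervals are 95% exact intervals of pooled counts, and reads without molecular identifiers are not independent molecules. The members and lists were chosen with earlier results of these data known. *Csf3* is on the study's own list of changed genes from these uteri, and the study examined *Socs3*, so neither direction is independent evidence. Named genes are the members, *Il6st*, *Socs3*, the 3 genes most like *Csf3*, *Csf1* and *Csf1r* in profile, and of each list those called, those at 0 counts and the 4 highest in mean CPM. Others are said to be chosen later. Alternatives were other tests (edgeR's exact and likelihood ratio tests, DESeq2 1.42.0, limma-voom 3.58.1), normalizations, filters, thresholds, unrounded counts, a replicate block and each uterus left out. Scripts were tested on simulated data.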

Additional observations from a re-analysis of the deposited data

How the results depend on the processing

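The 26 genes called became 7 with the legacy form of the quasi-likelihood fit, 1252 with edgeR's exact test, 1317 with its likelihood ratio test, 1546 with DESeq2, 105 without the filter and 856 at a false discovery rate below 0.10. Leaving out each uterus in turn gave 0 to 843 genes, and the 843 came without control 2. Of the members, 5 were called by the exact and by the likelihood ratio test (*Csf1*, *Il34*, *Csf3*, *Csf2rb* and *S100a8*), 4 by DESeq2 (those without *S100a8*, for which it gave no adjusted p), 3 at a false discovery rate below 0.10 (*Il34*, *Csf3* and *S100a8*) and 1, *Csf3*, without the filter. *S100a8* passed the filter through its controls, so its calls do not support a difference. No member was called by the legacy form or by limma-voom, which called 19 genes. Leaving out each uterus gave 0 to 1, the 1 being *Csf3* without control 2. The cause of these differences was not tested. All 179 member values under the alternatives kept their direction, and 16 passed the threshold. With the replicate number as a block, 6 genes and no member were called. The numbers share no more than a label, since same-numbered uteri correlated in their deviations at 0.102, 0.0613 and −0.19, and not every uterus correlated best with its own number. On TPM, 5 members in place of 6 had groups without overlap, an alternative added after seeing the data, as were the medians, and the values of list genes, without each uterus. Those medians changed sign in 4 lists, running from −0.142 to 0.06 for GM-CSF and G-CSF receptor signaling, −0.646 to 0.007 for inducers of *Csf3*, −0.768 to 0.339 for dendritic cells and −1.298 to 0.247 for smooth muscle. Per length, *Il34* and *S100a9* swapped ranks 6 and 7 in *Gp130* ecKO between TPM and CPM per kilobase. Depth limits *Csf2*, *S100a8* and *S100a9*, each of which had a *Gp130* ecKO uterus with no count.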

Other observations

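Cytokines and receptors known to induce *Csf3*, and the chemokines that attract granulocytes, were listed as 16 genes. Of these 8 were tested, 4 were higher and 4 lower in *Gp130* ecKO, and the median log2 fold change was −0.09. None was called by edgeR's quasi-likelihood test, 1 had an unadjusted p below 0.05, and DESeq2 and edgeR's exact and likelihood ratio tests each called 1, *Cxcl5*. *Il17a*, *Il17f* and *Tnf*, named after their values were seen, were each below 0.5 CPM in every uterus. *Il1a*, *Il1b* and *Il6*, also named afterwards, overlapped between the groups. *Il1a*, below the filter, had 56, 0 and 96 counts in the controls and 1, 0 and 0 in *Gp130* ecKO. *Il1b* had 39, 19 and 65 against 6, 27 and 15 counts, and *Il6* had a log2 fold change of 0.22. *Cxcl5*, a neutrophil attractant chosen after its values were seen, was 2.59, 0.733 and 2.33 CPM in controls 1, 2 and 3 and had no count in any *Gp130* ecKO uterus, where the limit is 3 counts per library or 0.115 to 0.136 CPM. It passed the filter through its controls, so its calls do not support a difference. *Tlr4*, the receptor for bacterial endotoxin and for calprotectin, overlapped at 21.6 ± 10.3 and 30.5 ± 10.01 CPM (SD, n = 3 each), as did *Il17rc*, *Nfkbiz* and *Cxcl15*. The chemokines *Cxcl1* and *Cxcl3*, also chosen after their values were seen, had few counts, *Cxcl1* 5, 3 and 8 in the controls and 2, 0 and 0 in *Gp130* ecKO, and *Cxcl3* 7, 5 and 3 against 0, 0 and 0, most of them close to the limit of 3 counts.

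Of 14 other S100 genes 8 were tested, 6 were lower and 2 higher, and the median was −0.52. None was called by edgeR's quasi-likelihood test, 3 had an unadjusted p below 0.05, and the other 3 tests each called 2, *S100a4* and *S100a6*. *S100a6* was 398.8 ± 31.3 CPM in controls and 190.3 ± 37.5 CPM in *Gp130* ecKO, without overlap (adjusted p = 0.0659 by edgeR's quasi-likelihood test), and *S100a10* was 374 ± 119 and 205 ± 44 CPM, also without overlap. Without control 2, *S100a6* was called, with adjusted p = 0.0447 by the same edgeR test, where 843 of the 16605 genes were called. *S100g*, the calcium-binding protein of the uterine epithelium, overlapped at 842 ± 182 and 897 ± 78 CPM. *S100a5* had no count in any uterus.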
